A study of Homo sapiens with 4 samples.

Results

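Aminoacyl-tRNA synthetases were examined in TU-177 cells, an established human laryngeal squamous cell carcinoma (LSCC) line, after knockdown of SKA3, a kinetochore protein that helps spindle microtubules hold on to chromosomes. The members were the rows of the expression table whose Ensembl identifier belongs to a protein-coding cytosolic or mitochondrial synthetase. Only symbols with ARS, ARS1 or ARS2 after an amino acid letter, and the EPRS, FARSA, FARSB and QARS forms, were taken. TARS3, another threonine enzyme, falls outside this symbol rule and is given below with other genes of tRNA charging. This gave 37 genes of 28729 in the table, 20 cytosolic and 17 mitochondrial. RNA from 4 libraries was compared, 2 of cells carrying a lentiviral negative control (NC) and 2 of cells carrying a lentivirus against SKA3 (SKA3-KD), each numbered 1 and 2. Per the labels both groups received lentiviral shRNA and were selected with puromycin. The supplementary methods of the study describe lentiviral shRNA in this line without naming the gene, and a guide RNA with Cas9 for stable SKA3 knockdown. The agent is therefore given here only as the labels name it. Whether the libraries of a group came from separate cultures is not given in the sources used here, so p-values measure the spread between these libraries, which may be technical.

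Aminoacyl-tRNA synthetases load each tRNA with its amino acid and so set the genetic code at the step before the ribosome. Cells keep one set for the cytosol and another, encoded by separate nuclear genes, that is imported into mitochondria and serves the few proteins made there. The enzymes fall into class I and class II, which have unrelated catalytic folds, and several cytosolic ones sit together in the multi-synthetase complex held by scaffold proteins. GARS1 and KARS1 each supply both compartments, EPRS1 charges both glutamate and proline, and FARSA and FARSB are the subunits of the cytosolic phenylalanine enzyme. Transcripts of many cytosolic synthetases are known to rise when amino acids run short, through the transcription factor ATF4.

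Levels are FPKM, counts of fragments divided by exon length and by the size of the library, which allow genes to be compared per length. Library sizes, worked out from the FPKM values and not given by the submitters in the expression columns, were 9015056 (NC 2) to 11966130 (NC 1) reads. Read numbers below were recovered from the FPKM values as well. SKA3 was at 9.40 and 9.64 FPKM in NC and at 3.77 and 4.12 in SKA3-KD, a log2 fold change of -1.09 (SE 0.07, limma adjusted p = 0.00806). Of 9 markers of squamous epithelium, 4 (KRT17, SFN, DSP and EPCAM) had a mean of at least 1 FPKM, and KRT5, KRT14, KRT6A, TP63 and CDH1 stayed at or below 0.58 in each library. Of 4 fibroblast markers, 2 (COL1A1 and DCN) reached that mean, and the list summed to 12.4 and 13.1 FPKM in NC against 5.67 and 5.37 in SKA3-KD, with COL1A2 at or near 0. DCN carried most of this, at 8.40 and 8.36 against 2.48 and 2.35 FPKM, and the part of any such difference in the results below was not tested. The summed leukocyte markers stayed at or below 0.365 FPKM and the endothelial ones at or below 0.0968.

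Synthetase transcripts were well represented, with 36 of the 37 genes reaching the mean of 1 FPKM that was required for testing and none of these 36 falling below 2.27 FPKM in any library. They were read 48 to 6608 times per library. Cytosolic enzymes stood higher than mitochondrial ones. The median level of the 20 cytosolic genes was 42.1 and 43.2 FPKM in NC and 42.0 and 40.6 in SKA3-KD, and that of the 16 mitochondrial genes tested was 9.38 and 9.60 in NC and 9.82 and 10.6 in SKA3-KD.

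**Figure D1:**
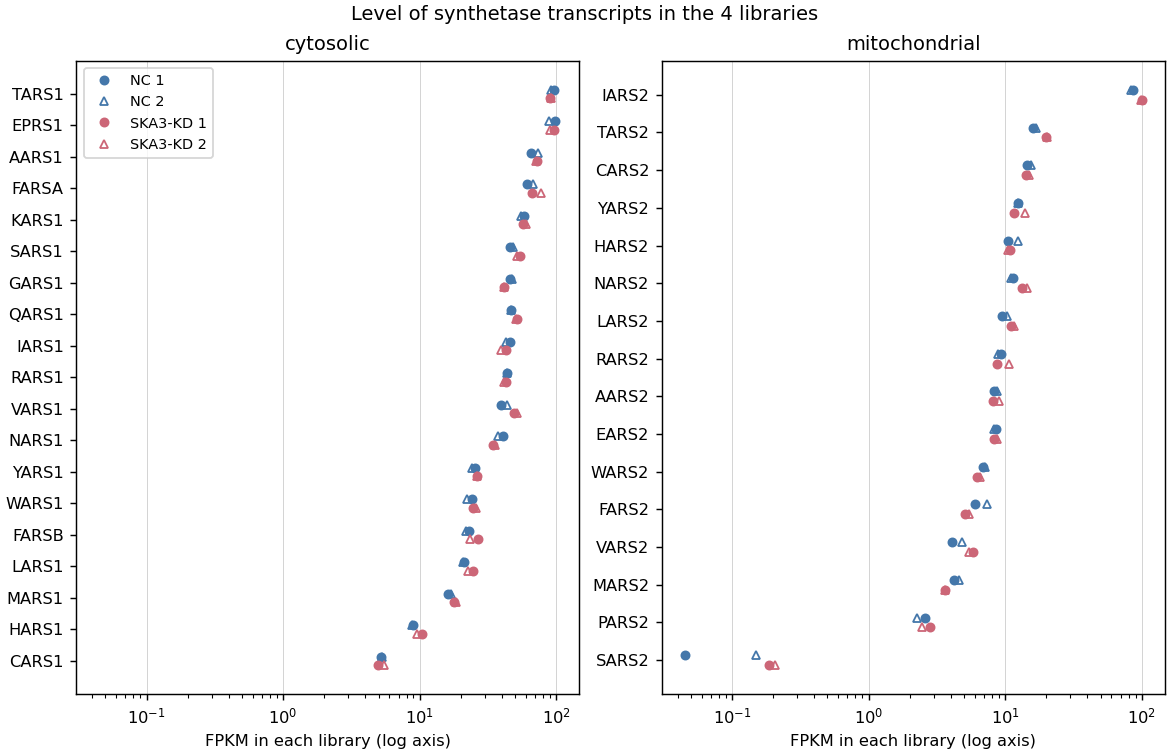
Level of synthetase genes in FPKM (log axis), cytosolic on the left and mitochondrial on the right, with 1 symbol per library (circles replicate 1, triangles replicate 2, NC blue, SKA3-KD red) and genes ordered by mean. Most cytosolic genes lie between 10 and 100 FPKM, IARS2, at 83.9 or more in each library, stands above the other mitochondrial genes, and SARS2 lies below 1.

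Among cytosolic enzymes the threonine enzyme TARS1 was at 96.6 and 91.0 FPKM in NC and 90.3 and 91.7 in SKA3-KD. EPRS1 was at 97.8 and 88.9 in NC and 96.8 and 89.3 in SKA3-KD, and the alanine enzyme AARS1 at 65.3 and 73.9 against 72.3 and 71.0. In these 3 most abundant genes TARS1 and EPRS1 overlapped each other, AARS1 lay below both in each library, and the groups overlapped in all 3. The lowest cytosolic levels were those of the cysteine enzyme CARS1, at 5.2 and 5.26 FPKM in NC and 4.98 and 5.43 in SKA3-KD. The histidine enzyme HARS1 followed at 8.98 and 8.78 against 10.3 and 9.59, and the methionine enzyme MARS1 at 16.0 and 17.0 against 17.7 and 18.5. Of these, HARS1 and MARS1 were higher in both SKA3-KD libraries than in either NC library.

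Among mitochondrial enzymes the isoleucine enzyme IARS2 stood far above the rest, at 86.0 and 83.9 FPKM in NC and 99.9 and 98.8 in SKA3-KD. The threonine enzyme TARS2, also among the more abundant, was at 16.0 and 16.7 against 19.8 and 20.4. Both were higher in both SKA3-KD libraries. At the low end the methionine enzyme MARS2 was at 4.25 and 4.58 FPKM in NC and 3.60 and 3.64 in SKA3-KD, and the proline enzyme PARS2 at 2.60 and 2.27 against 2.80 and 2.46. The serine enzyme SARS2 was listed at 0.0451 and 0.15 against 0.186 and 0.206 FPKM, or 2, 5, 7 and 9 reads, and was not tested. Other annotated genes (MRPS12 and ENSG00000269547) share 57.0% of its exon bases, 46.2% on the same strand, so its level is uncertain.

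The knockdown question for these genes is whether their transcripts moved with SKA3. Of the 36 tested, 1 was higher in SKA3-KD and 0 were lower at an adjusted p under 0.05 (limma on log2(FPKM + 1), Benjamini-Hochberg over all genes tested). Over the 12645 genes tested, 6.16% were higher and 6.11% lower, so the synthetases were called at 2.78% against 12.3% for either direction. At an unadjusted p under 0.05, 8 were higher and 3 lower, beside 16.2% and 15.1% of all genes tested, and limma voom on reads recovered from the FPKM values called 5 higher and 0 lower, beside 13.9% and 12.2% (26.1% in either direction). Fold changes were small. They ran from -0.29 to 0.29 on the log2 scale with SE between 0.05 and 0.11, and the 95% intervals of all 36 lay between -0.58 and 0.54. In RNA of whole cultures, less of a transcript per cell and fewer cells carrying it cannot be told apart.

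**Figure D2:**
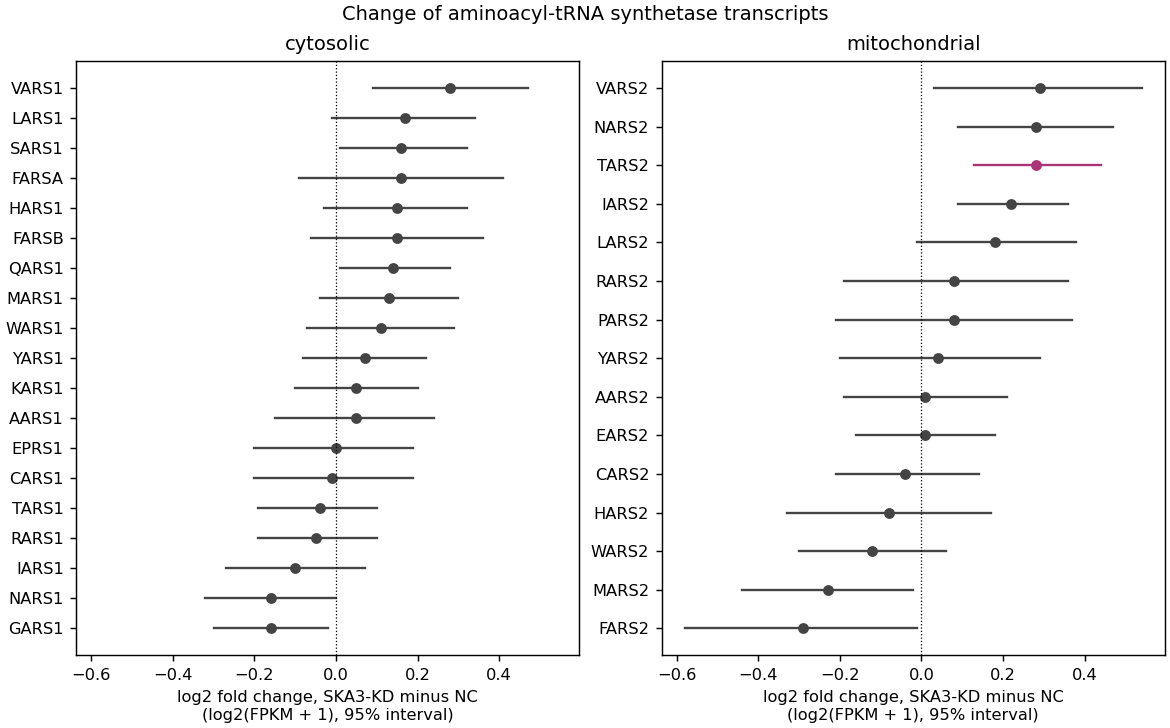
log2 fold change of tested synthetases, SKA3-KD minus NC on log2(FPKM + 1), with its 95% limma interval as a bar, cytosolic genes on the left and mitochondrial on the right. TARS2, the gene past the adjusted threshold, is in purple at 0.28, and the cytosolic estimates run from -0.16 to 0.28.

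More estimates were positive than negative, and their size stayed small. Log2 fold changes were positive in 23 and negative in 13 of the 36, beside 6520 positive and 6125 negative of all 12645 genes tested. The median was 0.06 beside 0.01 for all genes tested. Both SKA3-KD libraries lay above both NC libraries for 15 members (41.7%, beside 32.3% of all genes tested), and below them for 7 (19.4%, beside 29.2%), with 61.6% of all genes tested not overlapping in either direction. Genes of 1 library share its preparation and depth, so these shares are descriptions without a test.

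Cytosolic and mitochondrial synthetases did not separate by their medians. The median log2 fold change was 0.06 in each compartment, with 12 positive and 8 negative cytosolic genes and 11 positive and 5 negative mitochondrial ones. As log2 deviations from each gene's NC mean, the median cytosolic gene was at 0.02 and -0.02 in NC and 0.06 and 0.06 in SKA3-KD. The median mitochondrial gene was at -0.03 and 0.03 in NC and at -0.03 and 0.12 in SKA3-KD, so the mitochondrial median rested on SKA3-KD 2. It was -0.03 without that library and 0.12 without SKA3-KD 1. Summed levels gave 827.4 and 822.5 FPKM for the cytosolic genes in NC and 849.4 and 850.1 in SKA3-KD, against 228.3 and 232.4 and then 250.9 and 257.8 for the mitochondrial genes. The ratio of these sums was 3.62 and 3.54 in NC and 3.39 and 3.30 in SKA3-KD, and IARS2 alone makes up a large part of the mitochondrial sum. With 2 libraries a group an exact two-sided permutation test cannot give a p below 0.333, so no test was run on these sums.

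TARS2, which charges mitochondrial tRNA with threonine and lies at chr1:150487364-150507609 on the plus strand (GRCh38), was the synthetase past the threshold. Its NC mean was 16.3 ± 0.485 FPKM (SD, n = 2) from 770 and 605 reads, and its SKA3-KD mean 20.1 ± 0.374 FPKM (SD, n = 2) from 812 and 966 reads. The log2 fold change was 0.28 (SE 0.06, 95% interval 0.13 to 0.44, limma adjusted p = 0.0475), a 1.22-fold higher level. The groups did not overlap. The call was narrow, since 4 of 8 alternatives with all libraries kept it and the adjusted p ranged from 0.00925 to 0.0899 over the 8. With any 1 library left out it was lost, at log2 fold changes of 0.25 to 0.31 and adjusted p of 0.104 to 0.208, in fits that called between 0 and 46 genes higher over the whole table.

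Other mitochondrial members near the threshold were picked out after their values were seen. The asparagine enzyme NARS2 was at 11.5 and 11.0 FPKM in NC and 13.2 and 14.5 in SKA3-KD (log2 fold change 0.28, SE 0.07, limma adjusted p = 0.0719). The valine enzyme VARS2 was at 4.08 and 4.85 against 5.82 and 5.47 (0.29, SE 0.10, limma adjusted p = 0.126), and its estimate was 0.18 without NC 1 and 0.39 without NC 2. IARS2 had a log2 fold change of 0.22 (SE 0.05, 95% interval 0.09 to 0.36, limma adjusted p = 0.0547). These 3 did not pass. In each, both SKA3-KD libraries lay above both NC libraries, a pattern of 37.5% of mitochondrial genes tested beside 32.3% of all genes tested. On the recovered reads, limma voom called IARS2 (adjusted p = 0.0132), VARS2 (adjusted p = 0.0130) and NARS2 (adjusted p = 0.0274) along with TARS2. VARS2 shares 22.0% of its exon bases with GTF2H4 on the same strand, so reads of the 2 genes may be split between them.

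Estimates on the other side of 0 were found for the phenylalanine enzyme FARS2, at 5.97 and 7.41 FPKM in NC and 5.10 and 5.41 in SKA3-KD, with a log2 fold change of -0.29 (SE 0.11, 95% interval -0.58 to -0.01, limma adjusted p = 0.152). This estimate was -0.43 without NC 1 and -0.16 without NC 2. MARS2 had -0.23 (SE 0.08, limma adjusted p = 0.136) and the tryptophan enzyme WARS2 -0.12 (SE 0.07, limma adjusted p = 0.307). None of the 3 passed. In each, both SKA3-KD libraries lay below both NC libraries, a pattern of 18.8% of mitochondrial genes tested beside 29.2% of all genes tested. The leucine enzyme LARS2 had a log2 fold change of 0.18 with both SKA3-KD libraries higher. AARS2, CARS2, EARS2, HARS2, PARS2, RARS2 and YARS2 lay between -0.08 and 0.08, and their groups overlapped.

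No cytosolic synthetase passed the test. The estimates ran from -0.16 to 0.28, and 3 were higher and 1 lower at an unadjusted p under 0.05, beside 16.2% and 15.1% of all genes tested. The valine enzyme VARS1, chosen after its values were seen, was at 39.2 and 43.6 FPKM in NC and 49.0 and 51.8 in SKA3-KD (log2 fold change 0.28, SE 0.08, 95% interval 0.09 to 0.47, limma adjusted p = 0.0752), and limma voom called it (adjusted p = 0.00438). QARS1 (0.14, limma adjusted p = 0.149) and the serine enzyme SARS1 (0.16, limma adjusted p = 0.147) were also higher in both SKA3-KD libraries. With VARS1, QARS1 and SARS1 counted, 9 cytosolic genes (45.0%, beside 32.3% of all genes tested) had both SKA3-KD libraries above both NC libraries, the others being LARS1, FARSB, HARS1, MARS1, WARS1 and YARS1.

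The lowest cytosolic estimates were those of the glycine enzyme GARS1 and the asparagine enzyme NARS1, also chosen after their values were seen. GARS1 was at 46.0 and 47.1 FPKM in NC and 41.5 and 41.6 in SKA3-KD (log2 fold change -0.16, SE 0.05, limma adjusted p = 0.121). NARS1 was at 40.4 and 37.6 against 34.2 and 35.3 (-0.16, SE 0.06, limma adjusted p = 0.164). IARS1 and RARS1 were the other cytosolic genes with both SKA3-KD libraries below both NC libraries. This pattern was found in 4 of the 20 cytosolic genes, beside 29.2% of all genes tested. The groups overlapped in AARS1, CARS1, EPRS1, FARSA, KARS1 and TARS1, with estimates from -0.04 to 0.16. In 5 of the 37 synthetases over 10% of the exon bases also belong to another gene. Among cytosolic enzymes these were MARS1 (13.3%, which includes DDIT3) and WARS1 (10.6%). Processed copies were at most 0.204 (KARS1P2) and 0.400 FPKM (CARS1P2).

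Grouping by architecture gave no group with a call of its own beyond TARS2. The 8 synthetases of the multi-synthetase complex, which include EPRS1, IARS1, KARS1, LARS1, MARS1, QARS1 and RARS1, had 4 positive and 4 negative log2 fold changes and a median of 0.02. The other 12 cytosolic genes had 8 positive and 4 negative and a median of 0.09. Class I enzymes (18 tested) had 12 positive and 6 negative with a median of 0.08, and class II enzymes (17 tested) had 11 positive and 6 negative with a median of 0.05, with EPRS1 left out because it holds a domain of each class. Within the cytosol the medians were 0.11 for class I and 0.05 for class II, and within mitochondria 0.04 and 0.08. Of the complex's scaffold genes AIMP1, AIMP2 and EEF1E1, 0 of 3 were called by limma or by limma voom, beside 12.3% and 26.1% of all genes tested. At an unadjusted p under 0.05, 1 was higher and 0 were lower, beside 16.2% and 15.1% of all genes tested. AIMP2 had the highest estimate (0.21, SE 0.06, limma adjusted p = 0.0966).

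Each amino acid with an enzyme in both compartments gave a pair, 17 in all with EPRS1 used for both EARS2 and PARS2. The cytosolic partner was the more abundant in all 4 libraries in 13 pairs, counting SARS1 against the uncertain SARS2. Mitochondrial transcripts exceeded their cytosolic partners in all libraries in 3 pairs. CARS2 stood 2.75 to 2.93 times above CARS1, IARS2 1.89 to 2.5 times above IARS1, and HARS2, whose exon bases are shared in part with other genes, 1.06 to 1.41 times above HARS1. The widest ratio among tested genes was that of EPRS1 to PARS2, at 37.6 and 39.2 in NC and 34.5 and 36.3 in SKA3-KD.

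**Figure D3:**
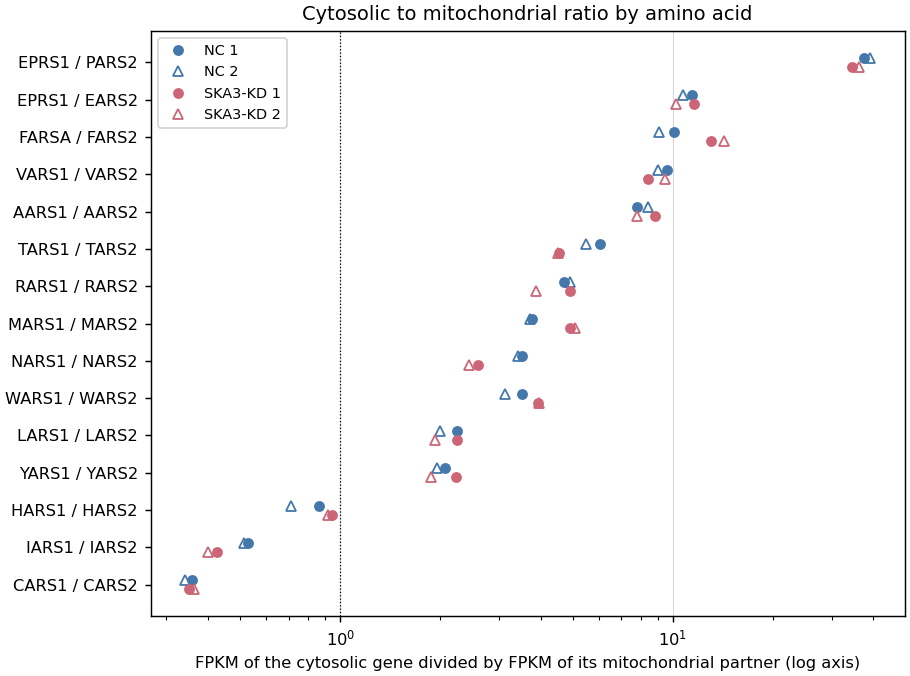
FPKM of the cytosolic gene divided by that of its mitochondrial partner in each library (log axis), with circles for replicate 1, triangles for replicate 2, NC in blue and SKA3-KD in red; the dotted line marks equal levels and not every pair is drawn. Ratios of the NARS, TARS, IARS and EPRS1 to PARS2 pairs are lower in both SKA3-KD libraries, and those of the FARS, MARS, WARS and HARS pairs are higher.

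The mean ratio of the partners was lower in SKA3-KD in 9 and higher in 7 of the 16 pairs other than SARS1 and SARS2. The NARS1 to NARS2 ratio was 3.52 and 3.41 in NC and 2.59 and 2.43 in SKA3-KD. The TARS1 to TARS2 ratio was 6.04 and 5.46 against 4.55 and 4.5, and the IARS1 to IARS2 ratio 0.528 and 0.512 against 0.425 and 0.400. In these 3 pairs the cytosolic estimate was negative and the mitochondrial one positive. The opposite held for FARSA to FARS2, at 10.1 and 9.11 against 13.0 and 14.2, and for MARS1 to MARS2, at 3.76 and 3.71 against 4.92 and 5.08. It also held for WARS1 to WARS2, at 3.52 and 3.12 against 3.94 and 3.96. HARS1 to HARS2 went the same way, at 0.865 and 0.709 against 0.946 and 0.919. These pairs were chosen after their values were seen and their differences were not tested.

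Promoters were read for a shared feature of the cytosolic genes, the letters bound by ATF4 with C/EBP partners in amino acid response elements. The pattern TGATGNAA was searched on both strands from 250 bases before to 50 after each RefSeq start (GRCh38.p14), and 30 of the 37 synthetases had such a promoter. The other 7, among them AARS2, LARS1, VARS1, VARS2 and YARS1, were not analysed here in this respect. The pattern was present in 7 of 16 cytosolic and 1 of 14 mitochondrial synthetases, and in 4.46% of 27305 genes with a promoter. The matches are shown as the letters behind the grouping used below, and since the pattern fixes nearly all of them their likeness is no finding. They are written 5′ to 3′ on the strand of the gene with the matching letters in capitals.
AARS1, chr16:70289678-70289701, minus strand: tctcgcagTTGCATCAgccaagtt
CARS1, chr11:3057410-3057433, minus strand: ggcggcggTTGCATCAgattctag
GARS1, chr7:30594837-30594860, plus strand: cgcggcgaTTTCATCAtgctccga
IARS1, chr9:92293695-92293718, minus strand: tcagcgcgTTGCATCAcctccgtg
MARS1, chr12:57488056-57488079, plus strand: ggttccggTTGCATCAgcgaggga
NARS1, chr18:57621807-57621830, minus strand: acgctctcTGATGCAAcgccggaa
TARS1, chr5:33440959-33440982, plus strand: cctttcgaTTGCATCAgctggtcc
YARS2, chr12:32756079-32756102, minus strand: cacactgcTGATGGAAaaattaag

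In 6 of the 7 cytosolic genes the match lay close to a RefSeq start, with distances counted from its first letter. This letter was 33 (GARS1), 13 (IARS1), 4 (MARS1) and 2 bases (CARS1) before the start, so the MARS1 and CARS1 matches span it. It was 2 (TARS1) and 14 bases (NARS1) after the start, and in AARS1 187 bases before. CARS1, GARS1 and TARS1 each have another RefSeq start, whose window did not hold the match. The YARS2 match, the mitochondrial one, lay 197 bases before the start. A match is a description of letters and not of a bound site, and no match says only that these letters are not in the window. Of the other patterns searched, on both strands, the E-box CACGTG was in 1 cytosolic and 3 mitochondrial promoters (8.77% of all genes with a promoter), the NRF1 element in 3 and 3 (6.98%), and the ETS pattern CCGGAAGT in 5 and 3 (4.95%). The ETS counts include HARS1 as cytosolic and HARS2 as mitochondrial, whose matches are the same 2 sites read from either gene. No ATF4-C/EBP match overlapped a match of another pattern.

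The medians of cytosolic synthetases with and without the letters lay on either side of 0, while each set held genes of both signs. The 7 with them had 2 positive and 5 negative log2 fold changes and a median of -0.04, and as log2 deviations from the NC mean their median was -0.01 and 0.01 in NC and -0.05 and -0.03 in SKA3-KD. The 9 with a promoter and without the letters, EPRS1, FARSA, FARSB, HARS1, KARS1, QARS1, RARS1, SARS1 and WARS1, had 7 positive and 2 negative and a median of 0.14, with 0.01 and -0.01 in NC and 0.07 and 0.10 in SKA3-KD. The 4 cytosolic genes with no promoter used here had a median of 0.12. None of these genes was called, the grouping was set with results of these data known, and it carries no test.

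**Figure D4:**
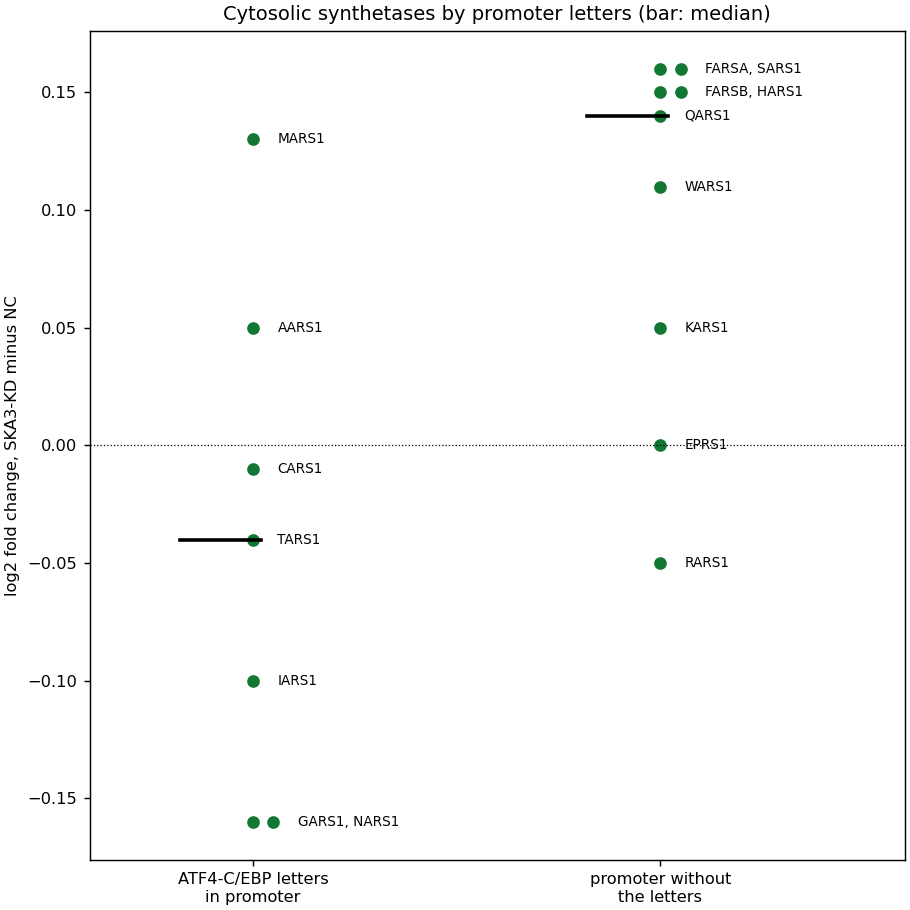
log2 fold change of the 16 cytosolic synthetases with a promoter (SKA3-KD minus NC, on log2(FPKM + 1)), split by whether the promoter held the ATF4-C/EBP letters or did not; points are genes and bars are medians. The median is -0.04 with the letters and 0.14 without, and GARS1 and NARS1 are the lowest points at -0.16.

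Genes of the amino acid response, in which the kinase EIF2AK4 senses uncharged tRNA and ATF4 drives biosynthesis and transport, were read alongside. Of 29 tested, 8 had positive and 21 negative log2 fold changes with a median of -0.13, and 1 was called higher and 4 lower, beside 6.16% and 6.11% of all genes tested. Limma voom called 4 higher and 9 lower, beside 13.9% and 12.2% of all genes tested. CTH, which makes cysteine from cystathionine, fell from 14.0 and 12.8 FPKM in NC to 7.86 and 7.69 in SKA3-KD (-0.71, limma adjusted p = 0.0123). PHGDH, which starts serine synthesis, fell from 37.6 and 39.1 to 28.7 and 28.1 (-0.42, limma adjusted p = 0.0202). The stress-induced factors ATF3 (-0.80, limma adjusted p = 0.0265) and NUPR1 (-0.48, limma adjusted p = 0.0212) fell as well. SLC7A11, the cystine importer, rose from 7.70 and 8.13 to 12.3 and 11.3 (0.52, limma adjusted p = 0.0212). ATF4 itself was at 72.3 and 74.2 FPKM in NC and 65.2 and 61.1 in SKA3-KD and did not pass (-0.21, limma adjusted p = 0.0843), nor did EIF2AK4 (0.31, limma adjusted p = 0.0643) or its activator GCN1 (0.27, limma adjusted p = 0.0683). Limma voom called ATF4 lower (adjusted p = 0.0308), and EIF2AK4 (adjusted p = 0.00337) and GCN1 (adjusted p = 0.00418) higher. ATF4 activity was not measured, and any link between these genes and the synthetase estimates was not tested.

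HARS1 and HARS2 are read in opposite directions from RefSeq starts with 84 bases between them on chromosome 5, and this stretch held 2 ETS matches. Their estimates were 0.15 for HARS1 (SE 0.07, limma adjusted p = 0.221) and -0.08 for HARS2 (SE 0.10, limma adjusted p = 0.610), and neither passed. HARS2 shares 15.8% of its exon bases with HARS1 and ZMAT2, so its level is uncertain where reads were counted without strand.

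Other genes of tRNA charging and translation were read beside the 12.3% of all genes tested that were called in either direction. Of 13 genes for other tRNA charging, proofreading, tRNA maturation, export and mitochondrial amidation, 11 were tested. They had 4 positive and 7 negative log2 fold changes, a median of -0.05, and 1 called higher and 0 lower. This was DTD2, which removes wrongly attached amino acids from tRNA, at 3.85 and 3.99 FPKM in NC and 5.92 and 5.31 in SKA3-KD (0.42, SE 0.08, limma adjusted p = 0.0401). XPOT, the exporter of tRNA from the nucleus, was at 37.6 and 36.1 against 30.7 and 30.9 and did not pass (-0.25, SE 0.06, limma adjusted p = 0.0534), though limma voom called it (adjusted p = 0.00706). The genes that supply glutaminyl-tRNA in mitochondria by amidation, GATB, GATC and QRSL1, lay between -0.05 and 0.01.

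Mitochondrial translation factors gave 4 positive and 8 negative estimates among 12 tested, a median of -0.02, and 0 calls at the adjusted threshold. At an unadjusted p under 0.05, 1 was higher and 1 lower, beside 16.2% and 15.1% of all genes tested. Limma voom called 1 higher and 1 lower, beside 13.9% and 12.2% of all genes tested. The elongation factor TUFM, which brings charged tRNA to the mitochondrial ribosome, was at 123 and 130 FPKM in NC and 152 and 147 in SKA3-KD (0.23, limma adjusted p = 0.0628, limma voom adjusted p = 0.0125). GFM1, which moves the mitochondrial ribosome along its message, was at 17.0 and 14.6 against 12.5 and 12.5 (-0.31, limma adjusted p = 0.0845, limma voom adjusted p = 0.00319). Of 5 cytosolic elongation factors tested, EEF1A1, which carries charged tRNA to the cytosolic ribosome, fell from 1300 and 1260 FPKM in NC to 1060 and 1030 in SKA3-KD (-0.29, SE 0.05, limma adjusted p = 0.0341). The other 4 were not called, and EEF1A2, EEF1B2, EEF1D and EEF2 had estimates from -0.14 to 0.16.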

How the data were processed

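Trizol-extracted RNA of TU-177 cells was sequenced as 4 Illumina libraries. The deposited unit is FPKM, a level already divided by gene length and library size. The submitters' processing notes name Bowtie2 2.2.8, HISAT2, StringTie 1.3.1, Cuffdiff 2.1.1 and hg19, with no role given, and whether counting used strand is not given in the sources used here. Symbols were matched for 27043 of 28729 genes. Positions and exon overlaps are from GENCODE 29 (GRCh38) and promoters from RefSeq (GRCh38.p14), not from the build of the files. The FPKM columns hold no depth, but their low values are whole multiples of 1 read, and whole reads were recovered for 99.9% of genes tested (61.3% with the annotated exon length, 38.6% from whole-number proportions between libraries).

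SKA3-KD was compared with NC by limma 3.58.1 (R 4.3.3) on log2(FPKM + 1) and eBayes with a trend, for 12645 genes averaging at least 1 FPKM. The pseudocount of 1 understates changes of low genes. Calls required a Benjamini-Hochberg adjusted p under 0.05. The comparison was repeated with a pseudocount of 0.1, with the filter at 5 FPKM or dropped, after quantile normalisation or median-of-ratios scaling, with no trend, with a replicate block and with each library left out. Limma voom on the recovered reads was added after seeing the data. NC 1 and NC 2 differed by more than sampling noise (chi-square per degree of freedom 3.68), as did SKA3-KD 1 and SKA3-KD 2 (3.58), so each counted as a library. Intervals cover the spread between these libraries. The steps were tested on simulated data.

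Members were named with 4 values where past the threshold or among the 3 most or 3 least abundant of their compartment, and results of some members are not reported here. Members and lists were chosen with earlier results of these data known. CD3E, PECAM1 and EEF1G were not analysed here.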

Additional observations from a re-analysis of the deposited data

How the results depend on the processing

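The counts over all genes were 772 lower and 779 higher, and rose to 887 and 993 with a mean FPKM of at least 5. They were 81 and 48 without a filter, 381 and 312 without a trend, 1544 and 1752 by limma voom on recovered reads (chosen after seeing the data), and 0 to 135 and 0 to 46 with 1 library left out. Mitochondrial synthetases called higher were 1 in the main comparison, 0 without a filter, with median-of-ratios scaling, with quantile normalisation, without a trend and with any 1 library left out (0 to 0), 3 with a mean FPKM of at least 5 and 4 by limma voom. Cytosolic synthetases called higher were 0, and 1 (VARS1) with a mean FPKM of at least 5 and by limma voom. With the replicate number as a block, 2 mitochondrial genes and 1 cytosolic gene were called higher, and 965 and 1002 genes over the table. Among SKA3 and the synthetases the block changed no other call, and the related genes were not run with it. Deviations from the group means in NC 1 and in SKA3-KD 1 had a correlation of 0.10 across genes, so the numbers were not taken to pair the libraries. Without SKA3-KD 2 the mitochondrial median was -0.03 (range -0.03 to 0.12), and the cytosolic minus mitochondrial difference, -0.00 in the main comparison, ranged from -0.05 to 0.09. With 1 library left out SKA3 ranged from -1.14 to -1.04 and lost its call without NC 1 (adjusted p = 0.066) or NC 2 (adjusted p = 0.060) in limma. Median-of-ratios scaling put AARS2 at -0.00 rather than 0.01. With 1 library left out, log2 fold changes turned sign over ranges of -0.04 to 0.13 (AARS1), -0.05 to 0.08 (AARS2), -0.06 to 0.05 (CARS1), -0.08 to 0.01 (CARS2), -0.02 to 0.04 (EARS2), -0.07 to 0.06 (EPRS1), -0.20 to 0.03 (HARS2), -0.05 to 0.22 (RARS2) and -0.08 to 0.16 (YARS2). A lone library left in a group is assumed to vary like the other group. The cause of these differences was not tested.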
